A study of Mus musculus with 21 samples.

Results

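The comparison described here is of cranial neural crest cells of the pinna, the external part of the ear, at E14.5 against the same structure at E12.5 in the mouse, where the number after E is the age of the embryo in days. Its members were the 6 libraries that the labels assign to sorted crest of the E12.5 pinna and the E14.5 pinna, with 3 libraries at each stage, out of 21 libraries in the series. The embryos carried Wnt1::Cre and the ROSARFP reporter and were otherwise wild type, on a mixed C57Bl/6J and CD1 background, with embryos of both sexes pooled. Cells with a history of Wnt1 promoter activity, which is a feature of early crest, are red in this model whatever type they have become, and red cells of the dissected pinna were collected by fluorescence-activated sorting. The tissue was dissociated with trypsin at E12.5 and with papain at E14.5. Every stage difference given here is therefore also a difference of enzyme, and the effects of stage and enzyme cannot be told apart. A further group of 3 libraries, sorted from the E10.5 second pharyngeal arch (PA2) after trypsin, shared the model and is quoted as an earlier reference level. The labels give the 3 libraries of a group as independent biological replicates.

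The pinna grows out of hillocks on the first and second pharyngeal arches. Its dermis, its cartilage and the connective tissue between them come largely from crest mesenchyme, while other crest cells that enter the skin become pigment cells or the Schwann cells of its nerves. The surface epidermis, the endothelium of blood vessels, blood and muscle fibres come from other lineages and would not carry the reporter. Arch mesenchyme is patterned by homeobox and other transcription factors such as the Hox, Dlx and Alx families, and connective tissue cells then assemble a matrix of collagens, elastic fibres and proteoglycans.

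Counts assigned to genes numbered 25814151 to 29481281 in the E12.5 libraries and 47506139 to 49058941 in the E14.5 libraries. Levels are given as counts per 1000000 (CPM) of a scaled library total, as single values in the order of replicates 1, 2 and 3 or as the mean ± SD of n = 3 libraries. Log2 fold changes are E14.5 relative to E12.5, with p-values from the edgeR quasi-likelihood test adjusted over all genes by the Benjamini-Hochberg method. The libraries of a stage resembled each other far more than those of the other stage, and the first principal component, which separated the stages, held 89.9% of the variance of the 6 libraries. The reference ribosomal transcript Rn45s took 1.12 to 1.77% of the counts at E12.5 and 0.357 to 0.84% at E14.5. Markers of crest mesenchyme were abundant in all 6 libraries, with Pdgfra, a growth factor receptor of mesenchyme, at 2278, 2418 and 2237 CPM at E12.5 and 3063, 3178 and 2772 CPM at E14.5. The Hox gene of PA2-derived crest, Hoxa2 (chromosome 6, 52162417 to 52164831, minus strand), was at 202, 222 and 212 CPM at E12.5 and 164, 155 and 147 CPM at E14.5. Every E14.5 library was below every E12.5 library, and Hoxa2 fell with a log2 fold change of -0.45 (SE 0.06, adjusted p 5.88e-05). Its mean remained above the 125.3 ± 3.41 CPM (SD, n = 3) of the E10.5 PA2.

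Most genes differed between the stages. Of 13438 genes with enough counts to test, 8824 (65.7%) were called at an adjusted p under 0.05 by the edgeR quasi-likelihood test. Of these, 4382 (32.6% of the genes tested) were higher and 4442 (33.1%) lower at E14.5. At least 2-fold, 1635 genes (12.2%) were higher and 1012 (7.53%) lower. The ranges of the 3 and 3 libraries were apart in 9359 genes (69.6%), and the median log2 fold change over all genes tested was -0.0076. Scaling by total counts in place of edgeR's trimmed mean of M-values moved that median to -0.13, and with it the share of calls that were higher from 49.7% to 38.5%, so that fold changes are read relative to the median gene. With such a background, a gene list is described below by its members called and its median beside these shares, and being called is by itself common. Short genes were lower more often. In the 1 of 5 equal bins with the shortest exons 12.7% were lower by at least 2-fold, against 5.92 to 6.81% in the other 4 bins of length.

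**Figure D1:**
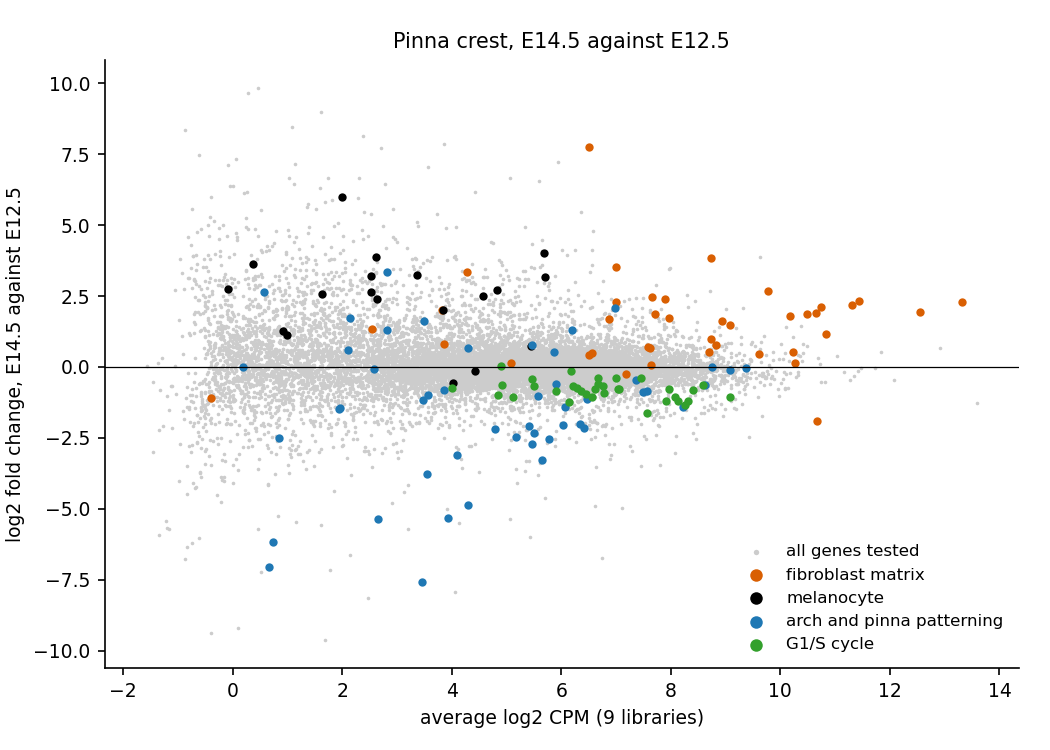
Log2 fold change of E14.5 against E12.5 pinna crest (vertical axis) against the average log2 CPM of the 9 libraries in the model (horizontal axis), 1 point per gene tested (13438 genes in grey). Coloured points are members of 4 gene lists. Fibroblast matrix and melanocyte genes lie mostly above 0, and arch and pinna patterning and G1/S genes mostly below it.

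The 10 largest rises included genes of the matrix, of signalling and of transport. Aspn (chromosome 13, 49544443 to 49567565, plus strand), which encodes the small leucine-rich matrix proteoglycan asporin, was at 1.19, 1.67 and 0.884 CPM at E12.5 and 253, 242 and 307 CPM at E14.5. All 3 E14.5 libraries lay far above the E12.5 range, with a log2 fold change of 7.74 (SE 0.18, adjusted p 4.61e-10). Slc26a7, an anion transporter, was at 1.37, 1.14 and 1.05 CPM at E12.5 and 200.4, 168 and 171 CPM at E14.5 (log2 fold change 7.24, SE 0.14, adjusted p 7.08e-11), and Ggt5, a cell surface peptidase, rose from 0.174 ± 0.155 to 41.2 ± 7.22 CPM (7.87 on the log2 scale). Mgp, matrix Gla protein, an inhibitor of calcification, rose from 0.244 ± 0.0833 to 32.5 ± 12.4 CPM. The secreted ligand Fgf2 rose from 0.081 ± 0.052 to 17.9 ± 9.06 CPM, with 9.96, 27.8 and 15.9 CPM in the 3 E14.5 libraries, and the secreted Wnt antagonist Sfrp5 rose from 0.124 ± 0.0836 to 13.2 ± 3.76 CPM. Ndufa4l2, a mitochondrial protein of pericytes, was seen once in the E12.5 libraries together and 1065 times in the E14.5 libraries, a ratio of 668 after scaling (95% counting interval 120 to 26417). For Ecrg4, a secreted precursor, the same ratio was 303 (118 to 1112), from 4 and 1929 counts, and for Galnt9, a glycosyltransferase, 157 (53.6 to 764), from 3 and 752 counts. The keratin gene Krt4 was also among the 10 largest rises, with 1.65, 1.28 and 12.9 CPM at E14.5 and 1 count in all at E12.5 (ratio 456, 81.6 to 18041). Its level rests largely on E14.5 replicate 3, which had the most epithelial transcripts, and its log2 fold change was 8.45 with that library and 6.60 without it.

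The 10 largest falls included the genes of a transcription factor, a neuropeptide receptor and neurofilaments. Ebf3 (chromosome 7, 137193673 to 137314445, minus strand), a helix-loop-helix transcription factor, was at 68.1, 56 and 66 CPM at E12.5 and 0.33, 0.673 and 0.788 CPM at E14.5, and had been at 257 ± 20.5 CPM in the E10.5 PA2. No E14.5 library reached 1 CPM, and the gene fell with a log2 fold change of -6.72 (SE 0.18, adjusted p 7.47e-10). Its relative Ebf2 fell from 24.5 ± 3.89 to 0.593 ± 0.36 CPM (-5.36). The growth hormone releasing hormone gene Ghrh had 739 counts at E12.5 and 1 at E14.5, a ratio of 1178 (95% counting interval 211 to 46585), and the neuropeptide Y receptor gene Npy2r fell from 10.8 ± 0.954 to 0.0723 ± 0.0341 CPM. Dlx1as, antisense to the homeobox gene Dlx1, fell from 16.5 ± 0.818 to 0.0652 ± 0.0582 CPM. The labels name an unstranded kit, whereas the counting took only 1 orientation. Genes were paired with each sufficiently abundant gene on the other strand that shared at least 500 exon bases. In 113 of 483 such pairs the gene had less than 0.1 of the level that reads without strand would give. Cyp1b1, an oxidase of retinoid and steroid metabolism, had 88 counts at E12.5 and none at E14.5, and was at least 46.8-fold lower when its E14.5 level is set to 3 counts over the group. The same bound was 8.5-fold for Lin28a, the RNA-binding protein of early developmental timing, which had 16 counts at E12.5 after 28.2 ± 14.499 CPM in the E10.5 PA2. The call on Lin28a (adjusted p 0.0357) was lost without any single library but E12.5 replicate 1, at adjusted p 0.0629 to 0.11. The neurofilament genes Nefl and Nefm and the uncharacterised transcript 5330434G04Rik were also among the 10 largest falls (log2 -5.98, -6.64 and -5.55).

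Fibroblast matrix genes rose as a group and by large amounts. Of 40 members tested, 33 were called higher and 2 lower (1 without E12.5 replicate 2 or E12.5 replicate 3), and 23 rose by at least 2-fold, with a median log2 fold change of 1.64. The fibrillar collagen genes Col1a1 and Col3a1, which form the main fibres of dermis, rose alike. Col3a1 (chromosome 1, 45311538 to 45349706, plus strand) was at 5072, 4718 and 4586 CPM at E12.5 and 24919, 19024 and 27127 CPM at E14.5 (log2 fold change 2.31, SE 0.12, adjusted p 3.20e-08), and was the gene with the most counts in each E14.5 library, at 1.84 to 2.57% of them. Col1a1 (chromosome 11, 94936224 to 94953042, plus strand) was at 1471, 1162 and 1442 CPM at E12.5 and 6839.7, 5547 and 7818 CPM at E14.5 (log2 fold change 2.31, SE 0.17, adjusted p 6.08e-07). In both genes the lowest E14.5 library was several times the highest E12.5 library. Counts over all 44 collagen chain genes in the table made up 2.01 to 2.22% of an E12.5 library and 6.18 to 7.81% of an E14.5 library, after 0.753 to 0.884% in the E10.5 PA2.

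The change was not the same for every kind of matrix gene. Elastin, the core of elastic fibres, rose from 82.9 ± 6.94 to 1183 ± 187 CPM (log2 fold change 3.84, SE 0.13, adjusted p 3.34e-09). Of the microfibril genes on which elastin is laid down, Fbn1 and Fbn2 changed by 0.47 and 0.51 on the log2 scale, and Mfap2 was at 239, 217 and 227 CPM at E12.5 and 245, 209 and 261 CPM at E14.5 and was not called (0.066, adjusted p 0.557). Among small leucine-rich proteoglycans, which bind collagen fibrils, Dcn rose from 64.7 ± 10.6 to 314 ± 70.0 CPM, Lum from 171 ± 32.1 to 570.0 ± 151 CPM and Bgn from 86.8 ± 1.71 to 475 ± 17.4 CPM, while Ogn changed by 0.79 on the log2 scale. Thbs2, Dpt and Postn, matrix proteins that organise collagen, rose by 3.53, 3.34 and 2.68 on the log2 scale. Fibronectin (Fn1) was at 1469, 1172 and 1518 CPM at E12.5 and 1569, 1529.7 and 1495 CPM at E14.5, overlapping ranges, and was not called (adjusted p 0.282). The proteoglycan versican, typical of loose embryonic matrix, went the other way. Vcan was at 2822, 2849 and 3005 CPM at E12.5 and 671, 987 and 686 CPM at E14.5, each E14.5 library below each E12.5 library (log2 fold change -1.89, SE 0.13, adjusted p 3.01e-07), and Has2, which makes the hyaluronan that versican binds, was not called (-0.26, adjusted p 0.0647). Loxl2, which cross-links collagen, rose from 72.3 ± 4.9 to 231 ± 16.8 CPM and Lox rose by 0.66 on the log2 scale. Abi3bp, a matrix protein, was at 4.38, 3.79 and 5.27 CPM at E12.5 and 3.77, 4.52 and 26 CPM at E14.5, a difference made by E14.5 replicate 3 alone (1.35 on the log2 scale, adjusted p 0.0712, and -0.11 without that library).

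**Figure D2:**
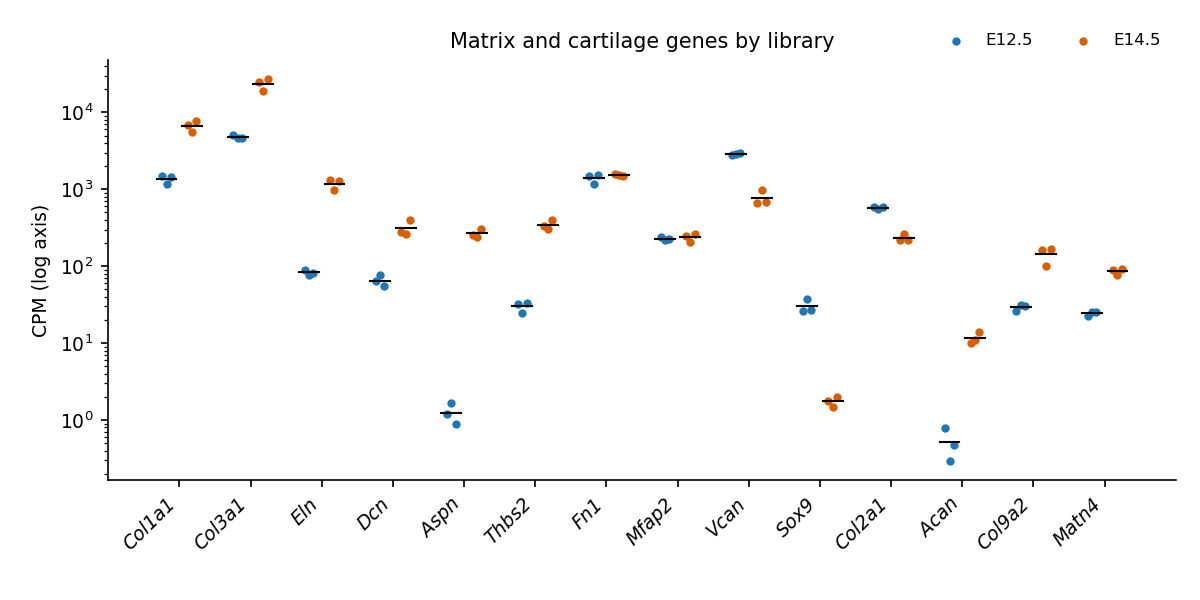
Level in CPM (log axis) of matrix and cartilage genes in each of the 3 E12.5 (blue) and 3 E14.5 (orange) libraries, 1 point per library and a bar at the group mean. The E14.5 points of Col1a1, Col3a1, Eln and Aspn lie above all E12.5 points, those of Vcan, Sox9 and Col2a1 lie below them, and those of Fn1 and Mfap2 overlap.

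Pigment cell genes rose nearly throughout. Melanocytes arise from crest cells that reach the skin as melanoblasts, express the master regulator Mitf, and switch on the enzymes and transporters of the melanosome, the organelle in which pigment is made. Of 19 melanocyte genes tested, 17 were called higher and 1 lower, and 16 rose by at least 2-fold, with a median log2 fold change of 2.63 against -0.0076 over all genes. The summed level of the list was 108 to 136 CPM in the E12.5 libraries and 549 to 631 CPM in the E14.5 libraries. A larger number of pigment cells and more RNA per cell cannot be told apart in bulk RNA, which also holds for every other cell type named here. The RefSeq promoters of 5 of these genes are printed first because they hold the M-box, TCATGTG, the motif through which Mitf is known to act on pigment genes. Of 20 listed genes, 13 had a promoter in the RefSeq table (build GRCm38.p6, 250 bases before to 50 bases after the start), and 5 of the 13 (38.5%) held the M-box on either strand, against 4.31% of the 27025 genes with a promoter. By promoter the shares were 25% of 20 and 3.77% of 32851. The motif is one already known from pigment genes, so its share in a list of such genes is not independent of the list. It was fixed with earlier results of these data known, a match is not evidence of binding, and no test was made. Capitals mark the M-box, which reads CACATGA where it lies on the other strand.
Tyr promoter, chr7:87493463-87493762, minus strand: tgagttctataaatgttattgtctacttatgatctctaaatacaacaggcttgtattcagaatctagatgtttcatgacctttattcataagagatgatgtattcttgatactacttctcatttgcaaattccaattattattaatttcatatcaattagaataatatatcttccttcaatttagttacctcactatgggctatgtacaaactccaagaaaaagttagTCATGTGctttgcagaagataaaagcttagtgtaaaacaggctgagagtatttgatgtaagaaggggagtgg
Tyrp1 promoter, chr4:80833963-80834262, plus strand: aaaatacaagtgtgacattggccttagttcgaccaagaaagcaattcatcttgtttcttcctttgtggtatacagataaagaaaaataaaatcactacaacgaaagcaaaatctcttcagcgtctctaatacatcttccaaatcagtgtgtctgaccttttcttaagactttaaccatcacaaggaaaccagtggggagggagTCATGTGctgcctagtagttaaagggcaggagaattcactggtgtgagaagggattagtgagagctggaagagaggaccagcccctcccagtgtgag
Dct promoter, chr14:118052197-118052496, minus strand: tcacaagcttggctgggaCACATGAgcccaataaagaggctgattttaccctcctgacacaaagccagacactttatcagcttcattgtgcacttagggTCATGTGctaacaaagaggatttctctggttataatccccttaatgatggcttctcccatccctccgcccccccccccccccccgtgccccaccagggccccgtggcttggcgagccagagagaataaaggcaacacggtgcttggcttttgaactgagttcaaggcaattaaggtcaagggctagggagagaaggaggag
Slc24a5 promoter, chr2:125067877-125068176, plus strand: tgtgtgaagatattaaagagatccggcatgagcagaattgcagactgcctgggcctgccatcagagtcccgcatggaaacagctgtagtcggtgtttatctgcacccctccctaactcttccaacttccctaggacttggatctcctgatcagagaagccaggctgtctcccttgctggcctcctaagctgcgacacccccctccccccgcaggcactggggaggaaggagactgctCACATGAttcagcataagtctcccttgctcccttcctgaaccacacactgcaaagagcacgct
Trpm1 promoter, chr7:64153585-64153884, plus strand: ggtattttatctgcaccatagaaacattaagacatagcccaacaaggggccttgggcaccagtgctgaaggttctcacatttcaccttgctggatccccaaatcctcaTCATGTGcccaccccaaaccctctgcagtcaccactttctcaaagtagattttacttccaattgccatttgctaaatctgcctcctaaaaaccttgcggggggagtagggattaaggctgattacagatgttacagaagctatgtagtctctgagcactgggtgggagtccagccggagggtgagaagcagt

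The M-box began 22 bases before the start of Tyr, 47 before that of Tyrp1, 142 before that of Trpm1, 13 before that of Slc24a5, and 151 and 232 bases before that of Dct, which held 2 of them. Each of these 5 genes rose. Tyr, tyrosinase, the first enzyme of melanin synthesis, was at 2.9, 2.48 and 2.96 CPM at E12.5 and 21.8, 30.6 and 27.1 CPM at E14.5 (log2 fold change 3.25, SE 0.17, adjusted p 4.68e-08). Tyrp1, a later enzyme of the same pathway, was at 0.186, 0.163 and 0.136 CPM at E12.5 and 11.2, 8.91 and 11.1 CPM at E14.5 (log2 fold change 5.98, SE 0.25, adjusted p 7.04e-08). Dct, another enzyme of the family and an early melanoblast marker, was at 8.06, 7.28 and 11.1 CPM at E12.5 and 128, 148 and 155 CPM at E14.5 (log2 fold change 4.02, SE 0.17, adjusted p 1.02e-08). In each of the 3 enzymes the lowest E14.5 library exceeded the highest E12.5 library several-fold. Slc24a5, an exchanger of pigment organelles, rose from 1.06 ± 0.273 to 15.8 ± 2.63 CPM. Trpm1, a channel gene whose intron holds a melanocyte microRNA, rose from 5.12 ± 0.222 to 20.5 ± 1.2 CPM and, unlike the enzymes, was already at 16.4 ± 0.357 CPM in the E10.5 PA2.

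Mitf itself (chromosome 6, 97807052 to 98021349, plus strand) was at 9.73, 9.66 and 10.7 CPM at E12.5 and 51.8, 59.8 and 57.8 CPM at E14.5 (log2 fold change 2.49, SE 0.09, adjusted p 3.90e-09). Pmel, which forms the fibrils of the melanosome, rose from 15.3 ± 3.77 to 136 ± 7.47 CPM, Mlana from 0.23 ± 0.0385 to 2.88 ± 0.321 CPM and the transporter gene Slc45a2 from 1.17 ± 0.357 to 6.89 ± 0.626 CPM. The receptors that melanoblasts need differed in size of change. Ednrb, the endothelin 3 receptor, rose from 10.0 ± 1.71 to 66.4 ± 9.78 CPM (2.73 on the log2 scale) and Kit, the receptor of stem cell factor, from 24.3 ± 3.82 to 40.3 ± 4.79 CPM (0.73). Their ligands, which the mesenchyme makes, also rose. Kitl, stem cell factor, was at 10.4, 14.497 and 10.8 CPM at E12.5 and 94.3, 85.1 and 81.7 CPM at E14.5 (log2 fold change 2.87, SE 0.28, adjusted p 4.90e-06), and Edn3 rose from 58 ± 1.4 to 115 ± 9 CPM. Rab27a, a melanosome transport gene used in many cell types, was not called (-0.15, adjusted p 0.205), and Cited1, a transcriptional cofactor, was the member called lower (-0.57, adjusted p 0.0442). The call on Cited1 was lost without any single library but E14.5 replicate 3, at adjusted p 0.0708 to 0.151.

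**Figure D3:**
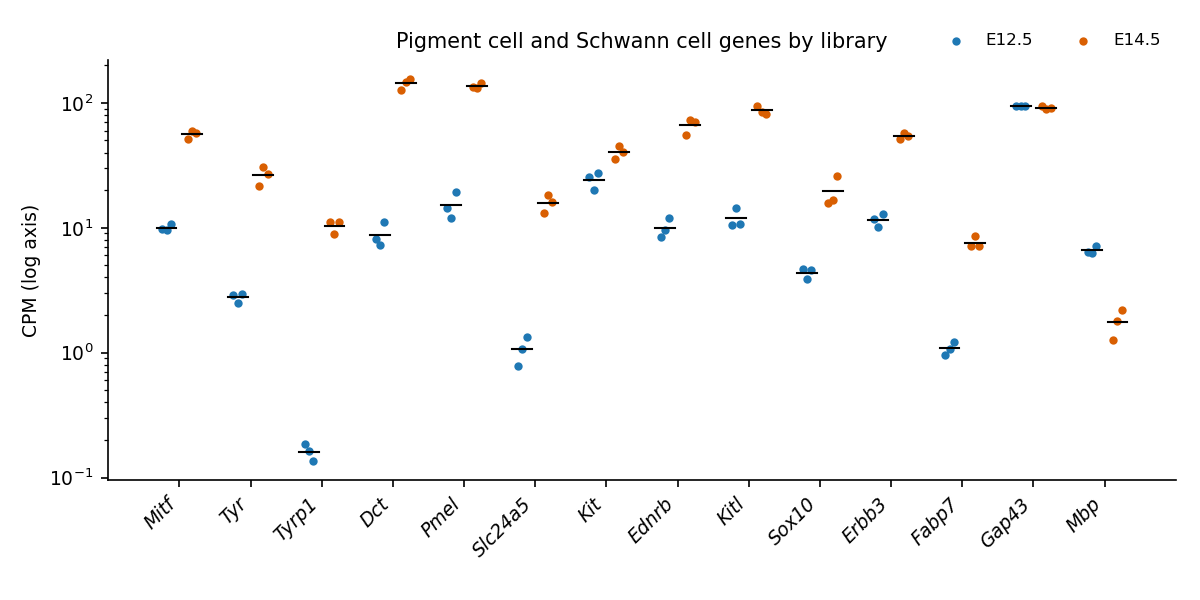
Level in CPM (log axis) of pigment cell and Schwann cell genes in each of the 3 E12.5 (blue) and 3 E14.5 (orange) libraries, 1 point per library and a bar at the group mean. The 3 E14.5 points lie above the 3 E12.5 points in each gene shown except Mbp, where they lie below, and Gap43, where they are level.

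Schwann and glial genes rose less uniformly. These cells wrap the axons that grow into the ear, arise from crest, and keep Sox10, which melanoblasts share. Of 23 genes tested, 16 were called higher, 13 of them by at least 2-fold, and 3 lower, with a median of 1.26. Sox10 (chromosome 15, 79154908 to 79165240, minus strand) was at 4.68, 3.89 and 4.55 CPM at E12.5 and 15.7, 16.8 and 26.1 CPM at E14.5 (log2 fold change 2.16, SE 0.23, adjusted p 9.17e-06). The neuregulin receptor gene Erbb3 was at 11.8, 10.1 and 13 CPM at E12.5 and 51.7, 57.6 and 54.6 CPM at E14.5 (log2 fold change 2.23, SE 0.095, adjusted p 1.05e-08). Both were clearly separated between stages. The lipid-binding protein gene Fabp7 rose from 1.09 ± 0.129 to 7.6 ± 0.863 CPM and the cadherin gene Cdh19 from 2.76 ± 0.321 to 13.9 ± 2.6 CPM, both markers of Schwann cell precursors. The mature marker S100b had 3 counts at E12.5 and 63 at E14.5, too few to be tested, and Egr2, a regulator of myelination, had none in the 6 libraries. Mbp, myelin basic protein, whose locus also makes non-myelin transcripts, fell from 6.61 ± 0.521 to 1.76 ± 0.48 CPM, and Itgb8 from 29.9 ± 5.24 to 10.45 ± 2.66 CPM. Gap43 was at 93.8, 95.1 and 93.5 CPM at E12.5 and 94.2, 89.9 and 90.3 CPM at E14.5 and was not called. Gas7, the largest rise of the list, is also known outside glia (from 9.85 ± 1.28 to 113 ± 3.07 CPM). The Sox motifs ACAAAG and ACAATG were looked for on either strand. ACAAAG was in 13.8% of 29 promoters against 18.7% of all, and ACAATG in none of 29 against 12.6%.

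Cartilage genes split. The pinna has an elastic cartilage, in which Sox9 directs the collagen and aggrecan genes. Of 18 members tested, 8 (44.4%) were called higher and 7 (38.9%) lower, with a median of 0.27. The shares over all genes tested were 32.6% and 33.1%. A further 14 listed genes were too low to be tested, with means of at most 1.1 CPM at both stages. Sox9 (chromosome 11, 112782224 to 112787760, plus strand) was at 26.1, 37.5 and 27.1 CPM at E12.5 and 1.76, 1.49 and 2.01 CPM at E14.5, and had been at 77.9 ± 1.54 CPM in the E10.5 PA2. The E14.5 libraries lay far below the E12.5 range (log2 fold change -4.11, SE 0.16, adjusted p 5.99e-09). Col2a1, the main cartilage collagen, was at 584, 554 and 596 CPM at E12.5 and 218, 265 and 221 CPM at E14.5 (log2 fold change -1.30, SE 0.077, adjusted p 1.11e-07). Other cartilage matrix genes were higher. Acan, aggrecan, rose from 0.517 ± 0.246 to 11.7 ± 1.97 CPM (log2 fold change 4.51, SE 0.36, adjusted p 1.02e-06), the type IX chains Col9a2 and Col9a3 rose from 29.1 ± 2.53 to 142 ± 35.8 CPM and from 8.98 ± 0.917 to 40.5 ± 6.95 CPM, the matrilin Matn4 from 24.4 ± 1.55 to 86 ± 8.89 CPM, the hyaluronan-binding protein gene Susd5 from 0.623 ± 0.254 to 3.69 ± 0.923 CPM and the collagen Col27a1 from 108 ± 11.8 to 409.8 ± 45.2 CPM. Sox6, which acts with Sox9, fell by 0.71 on the log2 scale, Trps1, a repressor of chondrocyte maturation, fell from 34.7 ± 6.22 to 12.1 ± 0.987 CPM, and Epyc, a cartilage proteoglycan, from 2 ± 0.428 to 0.182 ± 0.203 CPM. Nkx3-2, a regulator of cartilage from the arches, had 22 counts at E12.5 and none at E14.5, at least 11.7-fold lower. ACAAAG was in 20% of the 35 promoters of the list and ACAATG in 14.3%, against 18.7% and 12.6% of all promoters. By gene the shares went the other way. Each motif was in 12% of the 25 genes with a promoter, against 21% of all genes for ACAAAG and 14.3% for ACAATG.

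Bone and tendon genes were few and mostly low. Of 8 osteogenic genes tested, 5 (62.5%) were called higher and 2 (25%) lower, against 32.6% and 33.1% of all genes tested. Alpl, alkaline phosphatase, rose from 12.47 ± 2.2 to 49 ± 1.81 CPM (log2 fold change 1.97, SE 0.12, adjusted p 1.77e-07), and Sp7, the osteoblast factor, from 0.766 ± 0.173 to 3.61 ± 0.909 CPM. Runx2, which acts upstream of Sp7, was at 3.27, 3.66 and 3.94 CPM at E12.5 and 4.21, 3.24 and 5.23 CPM at E14.5 and was not called (adjusted p 0.46). Phex, a peptidase of mineralised tissue, fell from 7.39 ± 1.48 to 0.914 ± 0.103 CPM, and the bone matrix genes Ibsp, Bglap and Dmp1 had means below 0.05 CPM at both stages. Of 7 tendon genes tested, 3 (42.9%) were called higher and 4 (57.1%) lower, against the same shares of all genes. Scx, the tendon progenitor factor, fell from 6.31 ± 0.756 to 3.45 ± 1.72 CPM (adjusted p 0.0221, and 0.0702, 0.0794 and 0.0822 without E12.5 replicate 2, E14.5 replicate 1 or E14.5 replicate 2), Mkx from 16.4 ± 2.81 to 4.1 ± 0.757 CPM and Ptx3 from 40.4 ± 10.8 to 14.46 ± 3.91 CPM, while the keratocan gene Kera rose from 3.84 ± 0.734 to 10.4 ± 0.805 CPM. Egr1, the other large rise of the tendon list, is described with the immediate-early genes. Tnmd, tenomodulin, a marker of differentiated tendon, had 7 counts at E12.5 and 32 at E14.5 and was not tested.

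Dermal genes moved both ways. Of 19 tested, 8 were called higher and 8 lower (42.1% each), with a median of 0.23. Over all genes tested the shares were 32.6% and 33.1%, so these counts are not far from the background. Twist2 and Lef1, factors of early dermal fibroblasts, fell from 177 ± 3.52 to 124.9 ± 31.2 CPM and from 149 ± 6.8 to 96.7 ± 8.95 CPM. Foxd1, a forkhead gene of early arch mesenchyme, fell from 5.18 ± 0.299 to 0.373 ± 0.122 CPM, and Crabp1, a retinoid-binding protein of early dermis, fell by 0.49 on the log2 scale. Prdm1, found in dermal precursors around hair follicles, rose from 17.9 ± 1.67 to 64.9 ± 5.05 CPM (log2 fold change 1.86, SE 0.19, adjusted p 6.51e-06). Gli1, a target of hedgehog signals, was at 3.16, 2.61 and 2.92 CPM at E12.5 and 25.6, 20.4 and 30.5 CPM at E14.5, with the E10.5 PA2 at 80.7 ± 4 CPM, so that its lowest level was at E12.5 (log2 fold change 3.14, SE 0.15, adjusted p 2.51e-08). Ptch1, the hedgehog receptor and also a target, rose by 0.47 on the log2 scale. Of 7 adipogenic genes tested, 2 (28.6%) were called higher and 4 (57.1%) lower, against 32.6% and 33.1% of all genes tested. The number lower was 2 without E12.5 replicates 1 or 3 or E14.5 replicates 1 or 2. Cebpb and Cebpd, early regulators of fat cells that many other cells use, rose from 0.749 ± 0.0308 to 6.03 ± 2.61 CPM and from 1.22 ± 0.0729 to 7.65 ± 5.59 CPM, Cebpa was not called (0.36, adjusted p 0.214), Zfp423, a preadipocyte factor, fell from 164 ± 9.75 to 85.2 ± 10.0 CPM, and Pparg, the regulator of fat cell identity, had no count at E12.5 and 11 at E14.5.

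Mural cell genes, those of pericytes and vascular smooth muscle, rose with exceptions. Of 13 tested, 9 (69.2%) were called higher and 2 (15.4%) lower, against 32.6% and 33.1% of all genes tested, with a median of 1.37. Kcnj8 and Abcc9, which together form the potassium channel of pericytes, were at 0.223, 0.098 and 0.068 CPM at E12.5 and 6.32, 3.89 and 8.52 CPM at E14.5 and at 1.78, 1.04 and 1.22 CPM at E12.5 and 41.1, 36.2 and 41.9 CPM at E14.5 respectively. Both were well separated between the stages (5.58 and 4.89 on the log2 scale). The smooth muscle genes Mylk and Myh11 rose from 9.44 ± 2.93 to 98.6 ± 9.32 CPM and from 1.46 ± 0.154 to 14.6 ± 3.85 CPM, and the proteoglycan gene Cspg4 from 68.2 ± 5.91 to 358 ± 41.1 CPM. The receptor gene Pdgfrb rose from 558 ± 67.3 to 980.0 ± 84.4 CPM, and it is also active in fibroblasts. Against these, Rgs5, a marker of pericytes, was at 1.34, 0.882 and 1.09 CPM at E12.5 and 0.947, 1.79 and 5.01 CPM at E14.5 and was not called (adjusted p 0.116), Notch3, the receptor of vascular smooth muscle, and Tagln, a contractile protein gene, fell by 0.37 and 0.56 on the log2 scale (adjusted p 0.048 for Tagln, and 0.0521 to 0.165 without any 1 of the 6 libraries), and the smooth muscle genes Cnn1 and Lmod1 had means of 0.207 and 0.522 CPM at E12.5 and below 0.1 CPM at E14.5. Of the 18 listed genes, 10 had a promoter in the RefSeq table. None of these 10 promoters held a CArG box, the site of serum response factor, against 1.63% of all promoters. With a motif this rare, 10 promoters are too few to show a lower share.

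The arch and pinna patterning genes went mostly down. Of 49 tested, 33 were called lower, 26 of them by at least 2-fold, and 10 higher, with a median log2 fold change of -1.14. All 5 Dlx genes of the list, which set positions along the arches, fell. Dlx1 was at 86.7, 76.9 and 84.4 CPM at E12.5 and 19.3, 24 and 18.5 CPM at E14.5 (log2 fold change -2.002, SE 0.10, adjusted p 2.24e-08), and Dlx2, Dlx3, Dlx5 and Dlx6 fell by 2.46, 2.16, 1.02 and 1.40 on the log2 scale. Six4 and the Eya genes, of a network that forms the ear, also fell. Six4 fell from 38.5 ± 1.81 to 3.93 ± 1.14 CPM, Eya1 from 36.7 ± 5.69 to 8.03 ± 1.68 CPM and Eya4 from 17.9 ± 2.4 to 10.1 ± 1.35 CPM. Gsc and Hmx1, homeobox genes whose loss is known to alter the ear, fell too, with Gsc at 7.17, 5.94 and 4.66 CPM at E12.5 and 0.0881, 0.252 and 0.263 CPM at E14.5 (log2 fold change -4.85, SE 0.31, adjusted p 1.73e-07) and Hmx1 falling from 35.8 ± 7.96 to 8.51 ± 1.87 CPM. The T-box gene Tbx2 fell from 60.5 ± 9.39 to 14.6 ± 3.67 CPM. Shox2 fell from 12.4 ± 1.5 to 0.302 ± 0.164 CPM, Barx1 from 27 ± 2.55 to 4.13 ± 0.517 CPM, Lhx8 from 15.4 ± 3.65 to 1.78 ± 0.153 CPM and Osr1 from 116 ± 2.59 to 20.2 ± 2.05 CPM. In these genes no E14.5 library reached the range of the E12.5 libraries. Pitx1, with 41 counts at E12.5 and none at E14.5, was at least 21.8-fold lower.

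Patterning genes that rose or were not called were fewer. Tshz2, a zinc finger gene, was at 64.3, 66.6 and 65.2 CPM at E12.5 and 299.5, 263 and 266 CPM at E14.5 (log2 fold change 2.08, SE 0.064, adjusted p 1.64e-09), while Tshz1 fell from 176 ± 14.2 to 94.8 ± 10.1 CPM. The homeobox gene Alx4 fell from 11.8 ± 1.06 to 5.27 ± 1.42 CPM. Osr2 rose from 61.5 ± 2.39 to 152 ± 6.82 CPM, opposite to Osr1, and Lhx6 from 4.05 ± 1.89 to 10.1 ± 1.02 CPM, opposite to Lhx8. The Hox cofactor genes Meis1 and Meis2 were not called (log2 -0.10 and -0.053), and Pbx3 fell from 115 ± 4.79 to 52.1 ± 7.91 CPM. Hoxb2 fell from 10.2 ± 1.76 to 5.21 ± 0.839 CPM. Hoxa2 shares 267 exon bases with a read-through transcript on its strand, and reads there cannot be assigned to a single gene.

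**Figure D4:**
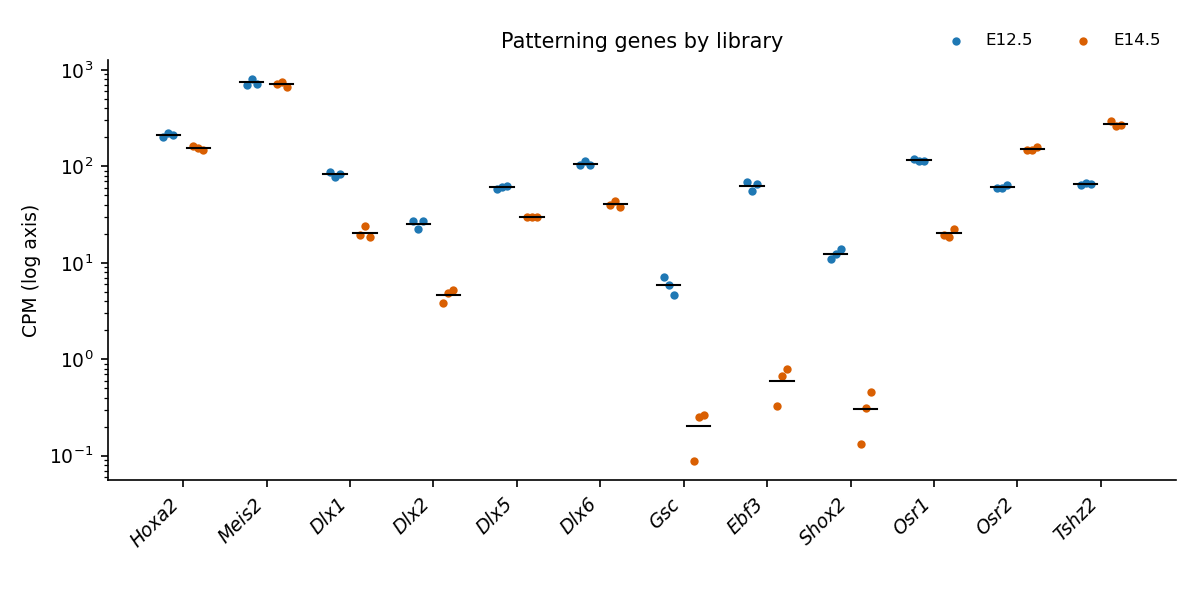
Level in CPM (log axis) of patterning genes in each of the 3 E12.5 (blue) and 3 E14.5 (orange) libraries, 1 point per library and a bar at the group mean. Points at E14.5 lie below those at E12.5 for Hoxa2, the Dlx genes, Gsc, Ebf3, Shox2 and Osr1, above them for Tshz2 and Osr2, and overlap for Meis2.

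The list of neural crest specifiers, factors that define crest at the neural tube, moved both ways. Of 19 tested, 9 (47.4%) were called higher and 7 (36.8%) lower, against 32.6% and 33.1% of all genes tested, with a median of 0.11. Beside Sox10, Pax3 was higher, at 0.966, 1.37 and 2.18 CPM at E12.5 and 13.1, 15.1 and 13.7 CPM at E14.5 (log2 fold change 3.20, SE 0.27, adjusted p 1.70e-06), and Tfap2b rose from 0.771 ± 0.102 to 5.58 ± 0.882 CPM. Ets1, also active in mesenchyme and vessels, rose from 144 ± 7.16 to 459 ± 11.6 CPM, and the repressor gene Snai1 rose by 0.99 on the log2 scale. Beside Sox9, its relative Sox8 fell by 0.9 on the log2 scale, Twist1 fell from 495 ± 36.2 to 375 ± 14.6 CPM, Msx1 from 173 ± 15.6 to 72.8 ± 18.8 CPM, Zic1 from 5.75 ± 1.16 to 0.747 ± 0.286 CPM and Mycn from 29.7 ± 1.78 to 9.33 ± 1.64 CPM. Foxd3, the early crest regulator, had no count in the 6 libraries.

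Secreted signals and their antagonists changed in both directions. Of 56 tested, 27 (48.2%) were higher and 17 (30.4%) lower, against 32.6% and 33.1% of all genes tested. By at least 2-fold, 18 (32.1%) were higher and 10 (17.9%) lower, against 12.2% and 7.53%. The fibroblast growth factors of the list were higher. Fgf9 was at 0.446, 1.11 and 0.952 CPM at E12.5 and 59.3, 61.3 and 62.2 CPM at E14.5 (log2 fold change 6.16, SE 0.19, adjusted p 1.75e-09), Fgf10 rose from 19.1 ± 4.63 to 137 ± 7.14 CPM and Fgf7 from 27.6 ± 2.4 to 137 ± 12.1 CPM. Of the Wnt ligands, Wnt4 was at 3.56, 3.43 and 2.65 CPM at E12.5 and 43.8, 38.9 and 53.2 CPM at E14.5 (log2 fold change 3.82, SE 0.15, adjusted p 5.95e-09), Wnt5a rose from 771 ± 26.7 to 1636 ± 131 CPM and Wnt2 fell from 5.78 ± 0.42 to 0.683 ± 0.16 CPM. Wnt antagonists split within their families. Frzb was at 186, 203 and 169 CPM at E12.5 and 22.3, 21 and 21.5 CPM at E14.5 (log2 fold change -3.11, SE 0.079, adjusted p 4.98e-10), and Sfrp1 and Sfrp2 fell from 133 ± 15.4 to 36.1 ± 3.24 CPM and from 285 ± 29.1 to 116 ± 14.9 CPM, while Sfrp4 rose from 0.321 ± 0.199 to 2.79 ± 0.607 CPM and the Dickkopf gene Dkk3 from 12 ± 2.15 to 209 ± 30.4 CPM. Fst, which binds activin, rose from 6.04 ± 0.62 to 121 ± 7.4 CPM. Bmp2 and Bmp4, bone morphogenetic proteins, rose from 3.22 ± 0.553 to 11.3 ± 2.23 CPM and from 25.3 ± 1.09 to 59.2 ± 1.25 CPM, and Grem1, their antagonist, fell from 215 ± 7.45 to 152 ± 24.6 CPM. Igf1 fell from 109 ± 9.61 to 40.3 ± 10.0 CPM while Igfbp3, which binds it, was at 155, 143 and 154 CPM at E12.5 and 2118, 2132 and 2386 CPM at E14.5 (log2 fold change 3.88, SE 0.13, adjusted p 2.82e-09). Cxcl12, a chemokine that guides crest and melanoblasts, fell from 175 ± 13.8 to 42.4 ± 3.55 CPM, Pdgfc from 30.8 ± 1.2 to 4.84 ± 1.19 CPM and midkine, Mdk, from 611 ± 66.1 to 223 ± 5.89 CPM.

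Timing genes of early development fell in part. Of 18 fetal growth and timing genes tested, 9 (50%) were called lower and 3 (16.7%) higher, with a median of -0.21. The shares over all genes tested were 33.1% lower and 32.6% higher. Without E14.5 replicate 2, 5 were higher. Lin28b, which blocks the maturation of let-7 microRNAs, was at 19.7, 30.2 and 32.3 CPM at E12.5 and 4.87, 5.49 and 4.05 CPM at E14.5 after 181 ± 42.5 CPM in the E10.5 PA2 (log2 fold change -2.51, SE 0.22, adjusted p 2.13e-06). The let-7 targets Hmga2, Igf2bp1 and Igf2bp3 fell from 703 ± 104 to 301 ± 53.4 CPM, from 264 ± 13.2 to 103 ± 8.48 CPM and from 192 ± 11.6 to 124 ± 1.72 CPM. Other let-7 targets did not follow, with Trim71 at 2.16 ± 0.0771 CPM at E12.5 and 3.23 ± 0.345 CPM at E14.5 (adjusted p 0.0584) and Igf2bp2 at 270.5 ± 17.7 CPM at E12.5 and 282 ± 12.6 CPM at E14.5 (adjusted p 0.401). Of the imprinted growth genes, Plagl1 and Mest rose from 47.4 ± 3.56 to 141 ± 21.3 CPM and from 367 ± 8.51 to 641 ± 42.9 CPM, H19 rose by 0.54, and Igf2 was not called (0.19, adjusted p 0.0505).

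Most cell cycle genes were lower. Of 34 genes of the G1/S transition tested, 32 were called lower and none higher, 10 of them by at least 2-fold, with a median of -0.78. No gene of this list was called higher in any of the 17 alternatives, and 2 were not called. The replication licensing genes Mcm2 and Mcm3 fell from 259 ± 5.17 to 112 ± 8.22 CPM and from 192 ± 8.16 to 113 ± 9.48 CPM, their partner Mcm5 fell from 243 ± 5.41 to 96.4 ± 8.76 CPM, and the largest fall was that of Rrm2, a subunit of ribonucleotide reductase, from 122 ± 1.61 to 39.8 ± 4.36 CPM (log2 fold change -1.61, SE 0.077, adjusted p 2.21e-08). Of 50 genes of G2/M tested, 46 were called lower, 17 by at least 2-fold, with a median of -0.91. The number lower by at least 2-fold was 10 without E14.5 replicate 1 and 28 with scaling by total counts. Cdk1 was at 102, 104 and 114 CPM at E12.5 and 53.7, 73.7 and 67.8 CPM at E14.5 (log2 fold change -0.71, SE 0.11, adjusted p 1.62e-04), the proliferation marker Mki67 fell from 654 ± 4.97 to 398 ± 84.9 CPM, and Ube2c, which acts in mitotic exit, from 59.3 ± 5.91 to 21.4 ± 5.71 CPM. The chromatin protein gene Hmgb2 fell from 45.7 ± 4.35 to 22.4 ± 4 CPM, and Cks2, which binds cyclin-dependent kinases, from 9.78 ± 0.767 to 3.75 ± 0.73 CPM. The member called higher was Nek2, with 2 counts at E12.5 and 24 at E14.5. Cdc45, Hmga1 and Kif11, which dividing cells need, were also listed at 0 or at means below 0.3 CPM at each stage, and neither their values nor any other gene listed at 0 here is read as absence.

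Genes of immediate-early response, which rise within minutes of handling or stimulation as well as in signalling cells, were higher at E14.5. Of 27 tested, 20 were called higher, 17 by at least 2-fold, and 3 lower, with a median of 1.62. Fos was at 140.3, 119 and 252 CPM at E12.5 and 925, 905 and 739 CPM at E14.5 (log2 fold change 2.33, SE 0.27, adjusted p 1.81e-05), after 8.52 ± 2.99 CPM in the E10.5 PA2. Egr1 was at 52.1, 48.8 and 109 CPM at E12.5 and 312, 362 and 383 CPM at E14.5 (log2 fold change 2.33, SE 0.26, adjusted p 1.37e-05). In both genes E12.5 replicate 3 was the highest of its stage, and still below each E14.5 library. Fosb, a partner of the same family as Fos, changed by 0.89 on the log2 scale (adjusted p 0.00995). Nr4a1 and Nr4a2, nuclear receptors of the same response, rose from 61.1 ± 14 to 690.0 ± 69.1 CPM and from 10.8 ± 0.526 to 124.8 ± 28 CPM, Btg2 from 34.6 ± 13.9 to 280.1 ± 39.9 CPM and Klf6 from 114 ± 15.6 to 354 ± 7.02 CPM. Jun was at 313, 279.6 and 323 CPM at E12.5 and 212, 182 and 393 CPM at E14.5 and was not called, the matrix signal gene Ccn1 fell by 0.67 on the log2 scale, and the heat shock genes Hsph1 and Hsp90aa1 fell by 1.20 and 0.61. The E10.5 PA2, dissociated with trypsin like the E12.5 pinna, had a summed level of the list of 1903 to 2207 CPM, against 1725 to 2191 CPM at E12.5 and 4038 to 4468 CPM at E14.5. That sum also holds the heat shock genes and does not describe each member. Fos was at 8.52 ± 2.99 CPM in the E10.5 PA2 and at a mean of 170 CPM at E12.5, both after trypsin. The part of the enzyme in these differences was not tested and cannot be told apart from stage.

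Markers of cells outside the crest were low, and some moved with stage. Of 13 endothelial genes tested, 6 (46.2%) were called higher and 1 (7.69%) lower, against 32.6% and 33.1% of all genes tested. The gene called lower was Erg (none without E12.5 replicate 1 or E14.5 replicates 1 or 2). But the defining genes Pecam1 and Cdh5 were at 3.01, 1.11 and 0.986 CPM at E12.5 and 2.67, 2.23 and 2.41 CPM at E14.5 and at 3.19, 1.24 and 0.646 CPM at E12.5 and 1.89, 1.93 and 2.72 CPM at E14.5, ranges that overlap. The overlap came from E12.5 replicate 1. Without that library Pecam1 and Cdh5 were called higher (log2 1.21 and 1.20, adjusted p 0.00138 and 0.0499), and 9 members of the list were called higher. The number was 4 without E12.5 replicate 2 or E12.5 replicate 3. Within this list Kdr, a VEGF receptor, was at 18.3, 16.1 and 19.6 CPM at E12.5 and 167, 154 and 101 CPM at E14.5 (log2 fold change 2.97, SE 0.17, adjusted p 7.81e-08), and Eng, a TGF-beta coreceptor, rose from 3.49 ± 1.04 to 71.3 ± 10.4 CPM, and neither is confined to endothelium. The other members called higher were Ramp2, Ecscr, Esam and Egfl7. Ramp2 rose from a mean of 9.29 to 42.1 CPM and Ecscr from 0.892 to 5.78 CPM, and Esam and Egfl7 rose by 0.80 and 0.38 on the log2 scale. Tie1, Tek, Plvap and Flt1 were not called. The summed list went from 39.7 to 59 CPM at E12.5 to 255 to 309 CPM at E14.5, mostly through Kdr and Eng. Epithelial genes were higher in 13 of 16 tested, all 13 by at least 2-fold, and lower in 3, with a median of 2.75. Their sum was 20.4 to 23.7 CPM at E12.5 and 80.4, 90.1 and 175 CPM in E14.5 replicates 1, 2 and 3. Krt5, Krt14 and Krt15, keratins of basal epidermis, rose from 0.568 ± 0.177 to 10.0 ± 3.82 CPM, from 0.305 ± 0.16 to 5.6 ± 1.75 CPM and from 0.321 ± 0.0778 to 7.72 ± 5.73 CPM, and Cdh1, epithelial cadherin, rose from 2.23 ± 0.817 to 14.6 ± 3.27 CPM. Krt1 and Krt10, keratins of differentiated epidermis, were highest in E14.5 replicate 3, with 21.2 and 23 CPM against at most 7.45 CPM in the others. Epcam fell from 3.29 ± 0.0452 to 1.28 ± 0.24 CPM and Krt18 from 1.87 ± 0.458 to 0.705 ± 0.426 CPM.

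The remaining lists are of neurons, skeletal muscle and blood. The neuronal list summed to 189.6 to 241 CPM at E12.5 and 57.02 to 78.7 CPM at E14.5, the muscle list to at most 40.7 CPM in any of the 6 libraries, and the erythroid and myeloid lists to at most 15.6 and 14.496 CPM. Of 10 neuronal genes tested, 4 (40%) were called lower and 1 (10%) higher, against 33.1% and 32.6% of all genes tested. Nefl was at 94.4, 139.9 and 108 CPM at E12.5 and 1.26, 1.72 and 2.45 CPM at E14.5 (log2 fold change -5.98, SE 0.37, adjusted p 1.53e-07) and Tubb3, neuronal tubulin, fell from 21.1 ± 1.44 to 2.21 ± 0.261 CPM, while Stmn2 was not called (-0.72, adjusted p 0.122), Elavl4 rose from 2.12 ± 0.613 to 5.86 ± 0.726 CPM, and the neurogenic factor genes Neurog1 and Neurod1 had means below 0.05 CPM at both stages. Of 7 skeletal muscle genes tested, 4 (57.1%) were called lower and 1 (14.3%) higher, against the same shares of all genes. Tnnt1 and Ttn, of the contractile apparatus, fell from 9.51 ± 0.591 to 3.45 ± 1.13 CPM and from 11.8 ± 1.8 to 7.38 ± 1.17 CPM, Des, desmin, which smooth muscle also uses, rose from 0.864 ± 0.248 to 7.23 ± 2.41 CPM, and the myogenic factors Myod1 and Myog had means of at most 0.52 CPM. Hba-a1, an adult globin gene, was at 2.08, 0.849 and 0.816 CPM at E12.5 and 1.32, 2.42 and 10.3 CPM at E14.5, so that E14.5 replicate 3 made most of the difference (adjusted p 0.0317, and 0.304, 0.0969 and 0.105 without E14.5 replicate 3, E12.5 replicate 2 or E12.5 replicate 3), and the embryonic globin genes Hbb-y and Hba-x fell, from 2.83 ± 2.41 to 0.296 ± 0.297 and from 0.649 ± 0.642 to 0.0716 ± 0.0438 CPM. Neither call on an embryonic globin gene held without E12.5 replicate 1 (adjusted p 0.057 and 0.111), nor that on Hba-x without E14.5 replicate 1 (0.0536). The adult beta globin gene Hbb-bt had 16 counts at E12.5 and 196 at E14.5 and was not tested. Of the myeloid genes only Ptprc and Cd68 passed the filter, with Ptprc rising from 0.089 ± 0.0926 to 1.47 ± 0.346 CPM, and Csf1r, the macrophage receptor, had 3 counts at E12.5 and 74 at E14.5. The contribution of such cells to the other lists was not tested.

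**Figure D5:**
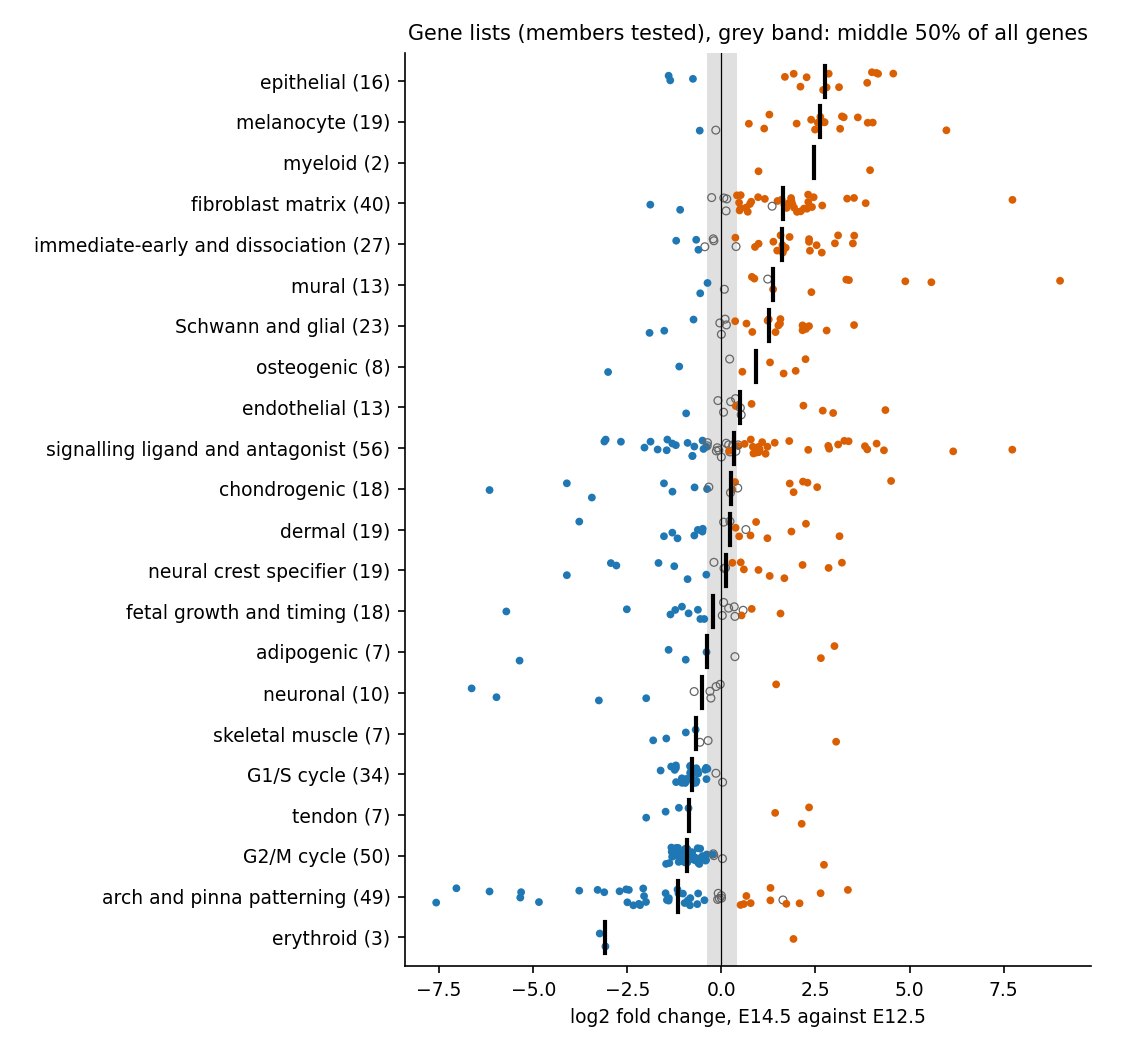
Log2 fold change of E14.5 against E12.5 (horizontal axis) of each member tested in 22 gene lists (rows), 1 point per gene, filled where called at an adjusted p under 0.05, with a bar at the median of the list and a grey band for the middle 50% of all 13438 genes. Among lists with at least 10 genes tested, medians are highest for epithelial (2.75) and melanocyte (2.63) genes and lowest for patterning (-1.14), G2/M (-0.91) and G1/S (-0.78) genes.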

How the data were processed

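The comparison used the 3 E12.5 and 3 E14.5 pinna libraries of a table of raw counts per gene that the authors deposited. Per the labels, independent samples were sequenced as single-end reads of 50 bases. The authors aligned these with QuasR and Rhisat2 to GRCm38 (mm10) and counted alignments of 1 orientation over the genes of TxDb.Mmusculus.UCSC.mm10.knownGene. The submitters' processing notes name bcl2fastq 2.17 and 2.20. Replicates stayed in separate columns and no column was left unused. The deposited table of paired-end counts from the deletion genotype holds no pinna library and was not used here.

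Of 24594 genes in the table, 18 had no symbol and 468 no Ensembl identifier. Library totals were 25814151 to 49058941 counts. Replicates of a group differed by far more than counting error (chi-square per degree of freedom 8.83 to 44.2), so none was a duplicate.

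A gene was tested where at least 2 of the 9 stage-series libraries reached 1 CPM. Tests were made with edgeR 4.0.16 (R 4.3.3) in 1 model of a mean per group, with trimmed mean of M-values (TMM) scaling and the two-sided quasi-likelihood test. P-values were adjusted by the Benjamini-Hochberg method and called under 0.05, and a further tier asked for a log2 fold change of at least 1. CPM in the text use TMM-scaled totals. A ratio of pooled counts carries a 95% counting interval, and a gene at 0 was set to 3 counts over the group. Both cover counting error only. In a test on simulated data of this comparison (13051 genes), all 200 genes changed 2-fold were recovered, with 17 false calls among 217. The simulation gave every gene the same dispersion and left most genes unchanged, unlike the data. The changed genes were taken from higher levels, so recovery of genes with low counts was not tested.

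The genes named were the 10 with the largest rise and the 10 with the largest fall, of the genes called whose ranges were apart and whose log2 CPM averaged at least 1. For each of the 22 lists, they were the first 2 genes and the 2 largest rises and falls under the same limit on level, and other members are given inside their list. Hoxa2 was also named. A few genes that this rule takes are not reported here. The members, the lists and the tests were chosen with earlier results of these data known. Alternatives were DESeq2 1.42.0, limma-voom (limma 3.58.1), other scalings, filters and thresholds, the pinna libraries alone, a replicate block, counts thinned to equal depth, and each pinna library left out. Where an alternative left a stage with 2 libraries, the spread was shared over the model.

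Positions are from GENCODE M21 (GRCm38), and promoter sequences from RefSeq (GRCm38.p6). The motif CArG box was searched as CC, 6 bases of A or T, and GG.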

Additional observations from a re-analysis of the deposited data

How the results depend on the processing

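The comparison was refitted under 17 alternatives. For the 213 named genes, 3479 recomputed values kept their direction and their side of the threshold, 50 lost a call, 29 gained a call and 5 changed sign, and 189 genes kept both throughout. The 5 were called neither in the reported comparison nor where their sign changed. They were Abi3bp (-0.11 on the log2 scale without E14.5 replicate 3 and up to 1.77 without another library), Cdh5 (-0.0221 without E12.5 replicate 3 and up to 1.20 without another library), Meis2 (0.00706 without E12.5 replicate 2 and down to -0.0953 without another library) and, with scaling by total counts, Igf2bp2 (-0.062) and Mfap2 (-0.058). Abi3bp, Cdh5 and Meis2 were called in some other alternatives, with Abi3bp higher without E14.5 replicate 1, Cdh5 higher without E12.5 replicate 1 and Meis2 lower with scaling by total counts. Of the recomputed counts of genes, 1033 were within 1.5 times the reported count and 89 were not. With at least 1 CPM required in every pinna library, 11968 genes were tested, and genes lower by at least 2-fold fell from 1012 to 632 by that construction. Members called there were osteogenic 3 higher and 0 lower, fibroblast matrix 1 lower, adipogenic 1 higher and 1 lower, neuronal 2 lower, skeletal muscle 0 higher and 2 lower, endothelial 0 lower, epithelial 3 higher and 1 lower by at least 2-fold, erythroid 0 in either direction, myeloid 1 higher, patterning 3 higher and 15 lower by at least 2-fold, and G2/M 0 higher. For the other moved counts, below, the cause was not tested. Endothelial genes lower became 0 with DESeq2, with limma-voom, at an adjusted p under 0.01, with the 6 pinna libraries alone and with counts thinned to equal depth. Melanocyte genes lower became 0 with limma-voom, at an adjusted p under 0.01 and with the 6 pinna libraries alone, and 2 with scaling by total counts. Adipogenic genes lower became 2 with limma-voom, at an adjusted p under 0.01 and with the 6 pinna libraries alone. Timing genes higher became 6 with DESeq2 and 5 with thinned counts or the 6 pinna libraries alone. Erythroid genes higher became 0 with limma-voom and at an adjusted p under 0.01, 3 with filterByExpr and 4 with no filter, and those lower 1 with limma-voom or the 6 pinna libraries alone and 0 at an adjusted p under 0.01. Mural genes lower became 1 at an adjusted p under 0.01. Neuronal genes higher became 2 with filterByExpr or no filter, skeletal muscle genes higher 3 with filterByExpr and 2 with no filter, and myeloid genes higher 7 with no filter. Fibroblast matrix genes lower by at least 2-fold became 1 with thinned counts. G2/M genes higher became 0 with the 6 pinna libraries alone, and those lower by at least 2-fold 28 with scaling by total counts. When single libraries were left out, genes higher numbered 3913 to 4235, lower 4063 to 4250, higher by at least 2-fold 1549 to 1641 and lower by at least 2-fold 979 to 1031. Members called lower then numbered 1 to 3 for fibroblast matrix (1 to 2 by at least 2-fold, with 1 without E12.5 replicates 2 or 3), 2 to 4 for adipogenic, 1 for mural, 0 to 1 for melanocyte and endothelial, and 0 to 2 for erythroid genes, and 10 to 24 G2/M genes were lower by at least 2-fold (10 without E14.5 replicate 1). Members called higher numbered 0 to 1 for erythroid, 3 to 5 for timing (5 without E14.5 replicate 2) and 1 to 2 for G2/M genes (2 without E14.5 replicate 3).

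Deviations from the group means correlated at r = 0.187, 0.303 and -0.0414 between libraries of the same replicate number (1, 2 and 3) over 10843 genes. Between libraries of different numbers r was -0.38 to 0.2. Whether libraries with the same number shared more than that number was not tested. With the replicate number as a block, 4313 genes were higher and 4367 lower. Under the block, members called lower became 2 for adipogenic, 1 for mural and 0 for melanocyte and endothelial genes, and those called higher 0 for erythroid and 5 for timing genes. Stage and dissociation enzyme run together and cannot be told apart. With all libraries thinned to equal depth, 1590 of the genes higher by at least 2-fold and 958 of those lower were shared with the comparison at full depth.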

Other observations

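A few gene families outside the lists were looked at after their values were seen. Histone cluster genes, which dividing cells use to package new DNA, were called lower in 62 of 63 tested and by at least 2-fold in 61, with a median log2 fold change of -2.07, against a median of -0.78 for the G1/S genes. Their near-identical copies share reads, so that single members are uncertain. Some other RNAs that mark library composition were lower at E14.5 too. Rn45s was at 17009, 10757 and 12673 CPM at E12.5 and 3734, 4273 and 8877 CPM at E14.5. Rmrp, the RNA of the enzyme RNase MRP, was at 1342, 1049 and 1203 CPM and at 586, 543 and 985 CPM. Rpph1, a further such RNA, was not lower. It was at 1616 ± 199 CPM at E12.5 and 2018 ± 388 CPM at E14.5, with overlapping ranges. It was not called by the edgeR quasi-likelihood test (log2 fold change 0.32, adjusted p 0.0878). E14.5 replicate 3 was the highest of its stage for Rn45s and Rmrp, as it was for the histone gene H4c8 (75.5 CPM, against 24.1 and 41.4 CPM). The part of library composition in the histone values was not tested. Of 37 collagen chain genes tested, 32 were called higher and 3 lower, with a median of 1.78. Of 76 cytosolic ribosomal protein genes tested, 8 were called higher and 30 lower, with a median of -0.09. Of all genes tested, 32.6% were called higher and 33.1% lower.

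Among noncoding RNAs, Terc, the RNA template of telomerase, was at 19.6 ± 1.06 CPM at E12.5 and 1.66 ± 0.754 CPM at E14.5 (SD, n = 3). The part of library composition in the Terc values was not tested either. Malat1, a nuclear long noncoding RNA, was at 7823 ± 383 CPM at E12.5 and 12554 ± 1006 CPM at E14.5, and its neighbour Neat1 at 16.01 ± 0.928 and 50.9 ± 5.77 CPM. Aldh1a2, which makes retinoic acid, fell from 37.6 ± 7.45 to 0.829 ± 0.6 CPM, and the Wnt receptor gene Fzd4 from 166.7 ± 14.49 to 5.37 ± 2.06 CPM. Thy1, a surface protein of fibroblasts and neurons, rose from 1.52 ± 0.0786 to 141 ± 14.8 CPM, and Cav1, the coat protein of caveolae, from 5.43 ± 1.2 to 239 ± 13.3 CPM. These noncoding RNAs and genes were picked outside the rule for named genes. Each was called by the edgeR quasi-likelihood test, with the ranges of the 3 and 3 libraries apart. Over all genes tested 65.7% were called and 69.6% had ranges apart.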
